A study of Mus musculus with 10 samples.

Results

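Integrin subunit genes were followed through 10 RNA-seq libraries of control and Jarid2 knockout mouse morulae. Taken by symbol from the table of counts were 10 genes of 35976: the alpha subunits Itga3, Itga5, Itga6, Itga7, Itgav and Itgae, and the beta subunits Itgb1, Itgb3, Itgb4 and Itgb5. All 10 were in the table. The morula is the compacted ball of cells that precedes the blastocyst. Embryos were of the strain combination BDF1 x PWK. The single-embryo set held 3 wild-type female embryos (replicates 1 to 3) and 3 female embryos with a Jarid2 knockout (replicates 1, 3 and 4), 1 embryo to a library. A knockout single embryo numbered 2 is not analysed here. About 20 embryos went into each pooled library, of which 2 were control and 2 knockout. For these pools the labels used here name no sex. They also do not say which exons the knockout removes or how it was made.

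Integrins are receptors of the cell surface, each made of 1 alpha and 1 beta chain that cross the membrane a single time. Outside the cell they bind laminin, collagen, fibronectin, vitronectin or, for the alpha E chain, E-cadherin, and inside they are switched on and tied to actin by talin and kindlin. Itgb1 is the shared beta chain of the laminin receptors (with Itga3, Itga6 or Itga7) and of the main fibronectin receptor (with Itga5), and mouse embryos that lack it die around implantation. Jarid2 is a cofactor of the Polycomb complex PRC2, which writes repressive methyl marks on histone H3 and acts chiefly at promoters rich in CpG dinucleotides.

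The bases just before the start sites of Itgb1 and Itgb5 are shown here. Both genes were among the 3 called lower in knockout single embryos, and both had an entry in the promoter table. The sequences come from RefSeq on GRCm38.p6, 5′ to 3′ on the gene's strand, with each CG in capitals. Itgb1 is shown from chr8:128685534-128685653 and Itgb5 from chr16:33829545-33829664, both on the plus strand and each ending at the base before the first exon.
Itgb1: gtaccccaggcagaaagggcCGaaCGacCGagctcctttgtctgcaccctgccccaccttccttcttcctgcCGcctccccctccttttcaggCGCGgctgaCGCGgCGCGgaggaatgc
Itgb5: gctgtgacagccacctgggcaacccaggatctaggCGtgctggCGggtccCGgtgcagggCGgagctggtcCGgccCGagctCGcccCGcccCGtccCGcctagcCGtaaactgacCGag
These 120 bases held 10 CG in Itgb1 and 12 in Itgb5. Over 250 bases upstream of a start site, the ratio of observed to expected CG was 0.741 in Itgb1, 0.683 in Itgb5, 0.694 in Itgav and 0.57 in Itga5. Itga3 has a pair of listed start sites, at 0.886 and 0.31. The median of all 32851 RefSeq promoters of that length was 0.374, so every member promoter listed but the second Itga3 start lay above it. Those above it stood at percentiles 64.0 (Itga5) to 87.3 (Itga3) of all promoters, which were not limited to genes expressed here. Any link of these ratios to the knockout changes was not tested. The GC box GGGCGG, searched on both strands, was found 3 times in Itgb5, once in Itgb1 and not in Itgav, and 32.7% of all promoters held at least 1. Neither of the printed genes had a CCAAT or a TATAAA in its window, which 33.8% and 12.4% of all promoters held. In all, 5 of the 10 members matched the promoter table, and Itga6, Itga7, Itgae, Itgb3 and Itgb4 were not among them. No factor binding or histone mark was measured in these libraries.

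Total counts were 14830332 to 18696312 in single embryos and 41003216 to 49861963 in pools, and integrin members took 0.0251% to 0.0934% of them. Jarid2 itself had 580.3 to 775.6 CPM (counts scaled so that every library sums alike) in wild-type and 61.3 to 318.7 CPM in knockout single embryos, or -1.92 on the log2 scale (SE 0.43, n = 3, adjusted p = 0.0342 by edgeR). Control pools had 442.5 and 496.3 CPM and knockout pools 180.6 and 157.9 CPM, or -1.55 on the log2 scale (SE 0.18, adjusted p = 0.0792 by edgeR). A list of 13 lineage genes of the morula and blastocyst summed to 1976.6 to 3845.2 CPM in all libraries. The 12 cumulus and granulosa markers summed to 50 to 173.6 CPM in wild-type and 40.6 to 91.7 CPM in knockout single embryos, and to 37.1 to 41.7 CPM in pools. Their part in the integrin values was not tested. Without Amhr2 and Pdgfra, which made up most of these sums, they came to 0.22 to 3.1 CPM, blood markers to 1.23 to 3.9 CPM and sperm markers to at most 5.13 CPM. Of these lists, 4 of 12 cumulus genes and 4 of 8 blood genes had 0 counts in every library.

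**Figure D1:**
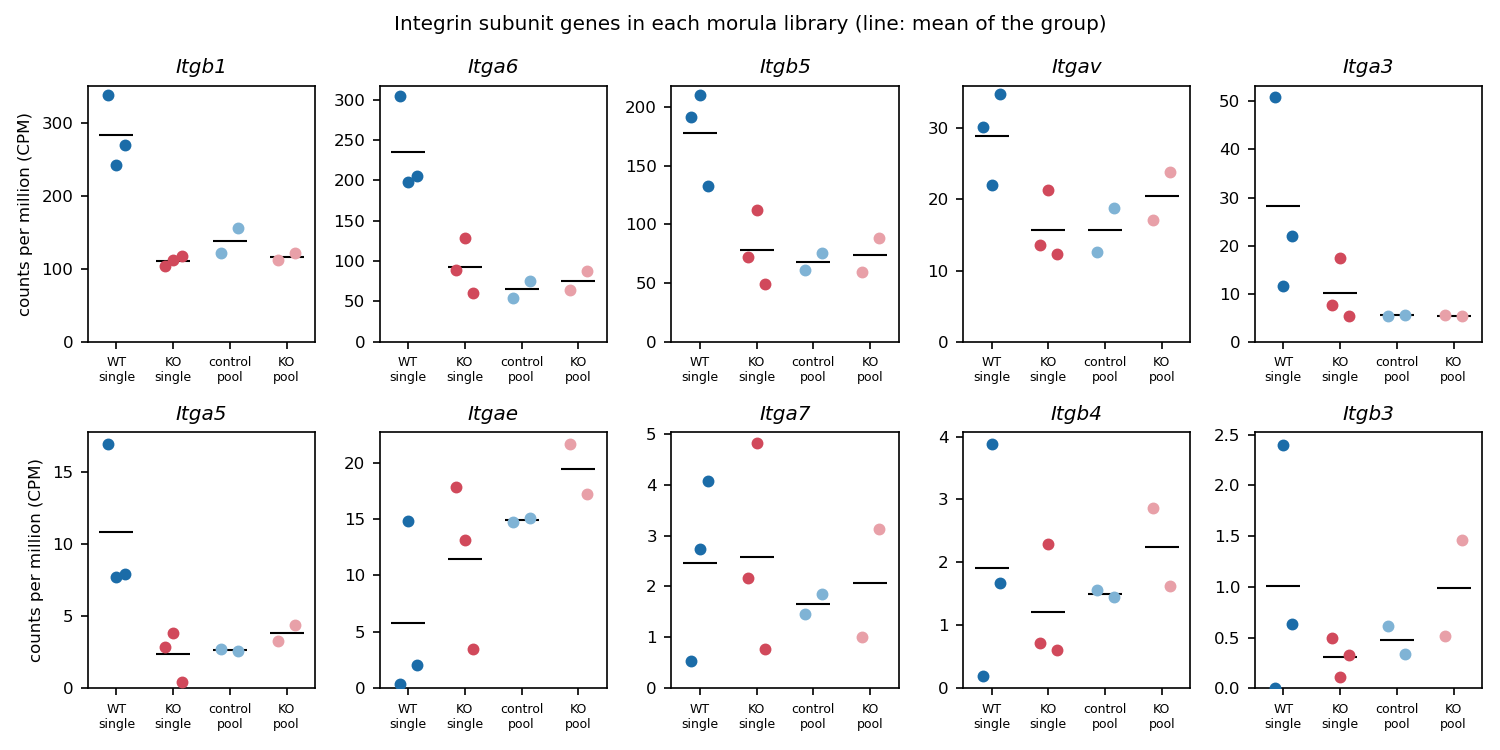
CPM of each integrin subunit gene (vertical axis, from 0, scale differing by panel) in each library of the 4 groups; points are libraries and lines are group means. Wild-type single embryos stood above the other 7 libraries for Itgb1, Itga6, Itgb5 and Itga5, while Itgav, Itga3, Itgae, Itga7, Itgb4 and Itgb3 showed no such order. The share of all genes with that order was not counted.

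Itgb1, Itga6 and Itgb5 had the highest levels of the 10 members in every group. Per kilobase of the longest coding transcript, their group means in wild-type single embryos were 74.4, 54.7 and 54.3 CPM per kb. The next member, Itga3, had 5.79 CPM per kb there. Together the leading 3 made up 85.4% to 93.4% of the summed CPM per kb of the 10 members. Itgb1 stood first in all 4 groups, at 29.1 in knockout single embryos, 36.3 in control pools and 30.6 CPM per kb in knockout pools. The values of Itgb1, Itga6 and Itgb5 overlapped between neighbours in both kinds of single embryo. In control pools they did not overlap, with Itgb5 at 20.7 and Itga6 at 15.1 CPM per kb. No library of a leading gene reached down to the range of the member next in order in any group. That member was Itga3 in wild-type single embryos and Itgae in the other 3 groups, at 2.98, 3.87 and 5.05 CPM per kb. In wild-type single embryos every neighbour below it overlapped the next. Divided by the length of all annotated exons instead, Itgb5 stood above Itga6 in every group, so the order of that pair depends on the transcript assumed.

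The common laminin receptor chain fell in knockout single embryos. Itgb1 (GRCm38 8:128685654-128733200) had 339.0, 242.6 and 269.4 CPM in wild-type embryos 1, 2 and 3. In knockout embryos 1, 3 and 4 it had 103.6, 111.9 and 118.0 CPM. The groups lay far apart, and the knockout embryos were within 1.14-fold of each other. The mean went from 283.7 ± 49.8 to 111.2 ± 7.22 CPM (SD, n = 3). On the log2 scale this was -1.31 (SE 0.20, adjusted p = 0.0136 by edgeR's quasi-likelihood test). In bulk RNA, fewer cells of a type and less transcript per cell cannot be told apart.

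Itga6, the laminin-binding alpha chain that can also pair with Itgb4, fell by a similar amount. It lies at 2:71745616-71858416 on GRCm38. Wild-type embryos had 304.6, 197.9 and 205.0 CPM and knockout embryos 88.5, 128.7 and 60.0 CPM. The groups did not overlap, and the knockout embryos differed among themselves by 2.15-fold. The mean went from 235.8 ± 59.7 to 92.4 ± 34.5 CPM (SD, n = 3), which was -1.32 on the log2 scale (SE 0.28, adjusted p = 0.0283 by edgeR).

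Itgb5 (GRCm38 16:33829665-33949338), which pairs with Itgav in a receptor for vitronectin, was the third to fall. It had 191.6, 209.8 and 132.9 CPM in wild-type embryos and 71.9, 112.2 and 49.2 CPM in knockout embryos. The lowest wild-type value lay above the highest knockout value, and knockout embryos differed by 2.28-fold. The mean went from 178.1 ± 40.2 to 77.8 ± 31.9 CPM (SD, n = 3), or by -1.16 on the log2 scale (SE 0.28, adjusted p = 0.0438 by edgeR). Leaving out wild-type embryo 1 or 3 or knockout embryo 1 or 4 ended all 3 calls, and leaving out wild-type embryo 2 ended that of Itgb5. Without one of these, adjusted p was 0.0531 to 0.0703 for Itgb1, 0.0866 to 0.123 for Itga6 and 0.0915 to 0.157 for Itgb5, while all log2 changes stayed below 0.

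In all, 3 of the 9 members tested were lower and 0 higher in knockout single embryos at an adjusted p below 0.05. Over all 13830 genes tested, 3.21% were lower and 1.16% higher. Those shares stand for 444 and 161 genes, and with upper quartile scaling the split was 423 and 301. At an unadjusted p below 0.05, 6 members were lower and 0 higher, against 12.2% and 10.4% of all genes. DESeq2 called 5 members lower and 0 higher, against 7.28% and 6.78% of all genes, and limma-voom 3 and 0, against 3.93% and 1.54%. The members' median log2 change was -1.16, against -0.03 over all genes tested, and 7 of 9 lay below 0. Every knockout library was below every wild-type library for 5 of the 9 members (Itgb1, Itga6, Itgb5, Itgav and Itga5), and for 15.3% of all genes tested. Itgb3 did not pass the filter on low counts in this set.

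Values of genes for other proteins with a membrane span are given beside these. All 10 members encode a stretch of 19 residues of high mean hydrophobicity, the mark of a membrane span used here. Of 3247 tested genes with such a stretch, 315 (9.7%) were lower and 12 higher in knockout single embryos. Their median log2 change was -0.48, and 2299 of them lay below 0. Of 8685 tested genes without one, 122 (1.4%) were lower and 145 higher, with a median of 0.10. Among genes with the stretch and a mean of at least 10 CPM, 306 of 1912 (16%) were lower and the median was -0.53. The 6 members at that level had 3 lower and a median of -1.23. In pools the medians of genes with and without the stretch were 0.01 and -0.01. No test compared this class with other genes, and its part in the integrin values was not tested.

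Itgav and Itga5 bind the RGD motif of fibronectin, and Itgav also that of vitronectin. Itgav had 30.1, 22 and 34.8 CPM in wild-type and 13.6, 21.3 and 12.4 CPM in knockout single embryos. The groups came within 1 CPM of each other without overlap, and the log2 change of -0.85 (SE 0.34) missed the threshold (edgeR adjusted p = 0.162). Itga5 had 16.9, 7.7 and 7.94 CPM in wild-type and 2.89, 3.8 and 0.44 CPM in knockout embryos. Its log2 change of -2.16 (SE 0.73) was the lowest of the members, but it rested on as few as 8 counts in knockout embryo 4 and did not pass (edgeR adjusted p = 0.112). DESeq2 did call it, at -2.12 and an adjusted p of 0.0235.

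Itga3, another laminin receptor chain and a partner of Cd151, differed by 4.35-fold between the wild-type embryos. It had 50.9, 11.7 and 21.9 CPM in wild-type embryos 1, 2 and 3, and 7.72, 17.4 and 5.31 CPM in knockout embryos. Wild-type embryo 2 lay below knockout embryo 3, so the groups overlapped. The log2 change was -1.46 (SE 0.56, edgeR adjusted p = 0.155), and without wild-type embryo 1 it was -0.73 (adjusted p = 0.585). DESeq2 called it at -1.42 (adjusted p = 0.0466).

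The remaining members had few counts or scattered values. Itgae, the E-cadherin-binding alpha chain best known from lymphocytes of epithelia, had 0.4, 14.8 and 2.07 CPM in wild-type and 17.8, 13.1 and 3.49 CPM in knockout single embryos. Its log2 change of 1.06 (SE 0.99, edgeR adjusted p = 0.576) became 3.20 (adjusted p = 0.0807) without wild-type embryo 2. Gsg2, the haspin kinase gene, lies within Itgae on the opposite strand and had 285 to 769 counts. The annotated exons of this pair do not overlap, and how the counting treated strand is not given. Itga7, a laminin receptor chain of muscle, had 0.54, 2.74 and 4.08 CPM against 2.16, 4.81 and 0.77 CPM. Itgb4, the hemidesmosome chain that pairs with Itga6, had 0.2, 3.88 and 1.67 CPM against 0.72, 2.3 and 0.61 CPM. The genotypes overlapped for both genes (log2 changes 0.07, SE 0.95, and -0.65, SE 1.13). Itgb3, another beta chain that pairs with Itgav, had 0, 42 and 11 counts against 9, 2 and 6. A count of 0 in wild-type embryo 1 allows up to 0.202 CPM. Wild-type embryo 1 thus had the lowest value of its group for Itgae, Itga7, Itgb4 and Itgb3 and the highest for Itgb1, Itga6, Itga3 and Itga5.

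**Figure D2:**
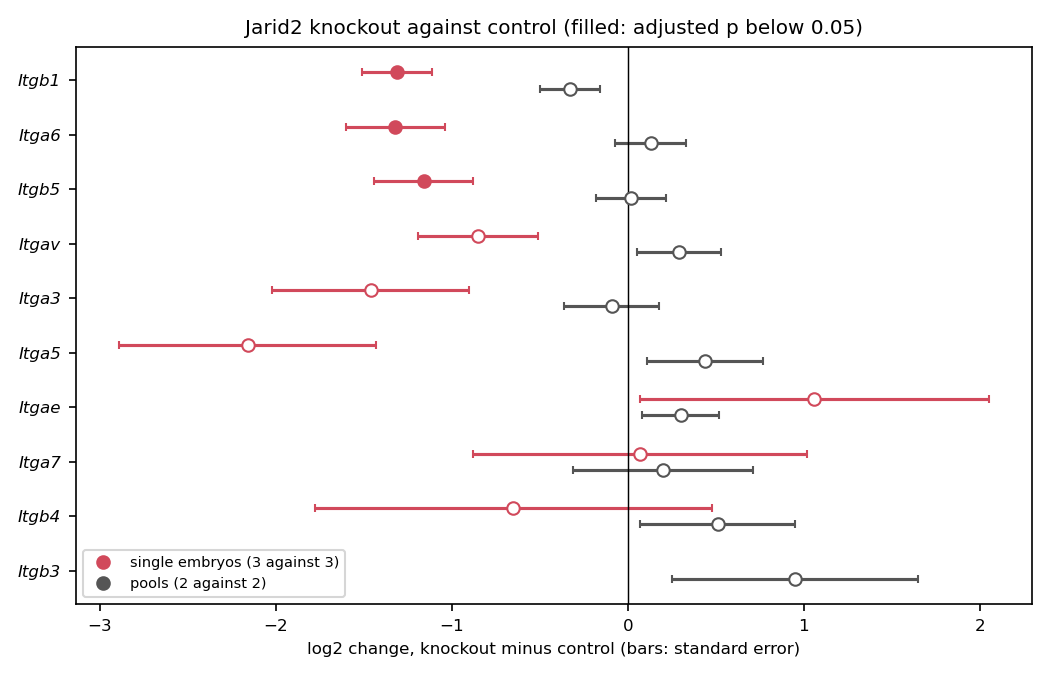
Log2 change from control to knockout of each integrin subunit gene (horizontal axis; bars are standard errors) in single embryos (red, 3 against 3) and pools (grey, 2 against 2); filled points passed an adjusted p of 0.05. Only Itgb1, Itga6 and Itgb5 in single embryos are filled, and the pool values lie between -0.33 and 0.95.

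In pools no integrin member passed the test in either direction. For Itgb1 the control pools had 121.2 and 155.6 CPM and the knockout pools 112.7 and 121.1 CPM. The groups were separated by 0.1 CPM only, and the log2 change was -0.33 (SE 0.17, adjusted p = 0.797 by edgeR). Itga6 had 54.8 and 75.7 CPM in control and 64.5 and 87.4 CPM in knockout pools, a log2 change of 0.13 (SE 0.20). Itgb5 had 60.8 and 75.3 CPM against 59.6 and 88.3 CPM, a log2 change of 0.02 (SE 0.20). Both overlapped between genotypes. The other log2 changes ran from -0.09 for Itga3 to 0.95 for Itgb3 (SE 0.70, 16 to 60 counts).

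By edgeR 0 of 10 members were lower and 0 higher in pools, while over all 16259 genes tested 0.0% were lower and 0.0% higher. At an unadjusted p below 0.05 there were 0 members and 6.6% of all genes. DESeq2 and limma-voom also called 0 members, against 0.431% and 0.00615% of all genes. Both knockout pools were below both controls for 1 of 10 members, Itgb1, and for 11.1% of all genes. Both were above both controls for 3 members (Itga5, Itgae and Itgb4) and for 24.3% of all genes. The members' median was 0.25, against 0.01 over all genes. No label ties the pools to separate litters, so their spread may be technical.

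Whether the knockout effect on a member differed from one set to the other was tested over all 10 libraries. Itga6 differed by -1.42 on the log2 scale (SE 0.41, edgeR adjusted p = 0.235), Itgb5 by -1.16 (SE 0.41, adjusted p = 0.249) and Itgb1 by -0.95 (SE 0.28, adjusted p = 0.235). A negative value means that the knockout effect was lower in single embryos. By edgeR 0 of 10 members passed, against 0.0063% of all 15878 genes tested. At an unadjusted p below 0.05 there were 5 members, and 14.6% of all genes. DESeq2 called Itga6 (-1.40, adjusted p = 0.0348) and Itgb1 (-0.93, adjusted p = 0.0465), where 2.75% of all genes passed. Limma-voom called 0 members and 0.0063% of all genes. By the edgeR test the fall in single embryos was therefore not shown to differ from the pools.

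Side by side, the wild-type single embryos were the libraries that stood out. The lowest of them had 242.6 CPM of Itgb1, and the highest of the other 7 libraries had 155.6 CPM, in a control pool. For Itga6 these values were 197.9 and 128.7 CPM, and for Itgb5 132.9 and 112.2 CPM, the highest being a knockout single embryo in both. For Itga5, which edgeR did not call, they were 7.7 and 4.41 CPM, the latter in a knockout pool. Outside the members, Cdh1 and Sdc4 also had this order and Tln1 did not. The share of all genes with this order was not counted, so it is not shown to be particular to integrins. The middle member's log2 deviation from its mean over libraries was 0.81, 0.73 and 0.78 in the wild-type single embryos. It was -0.78 to 0.26 in knockout single embryos, -0.40 and -0.15 in control pools, and -0.35 and 0.09 in knockout pools. Single embryos and pools differ in embryo number and depth and may differ in sex, which cannot be told apart, so wild-type single embryos and control pools were not compared by a test.

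**Figure D3:**
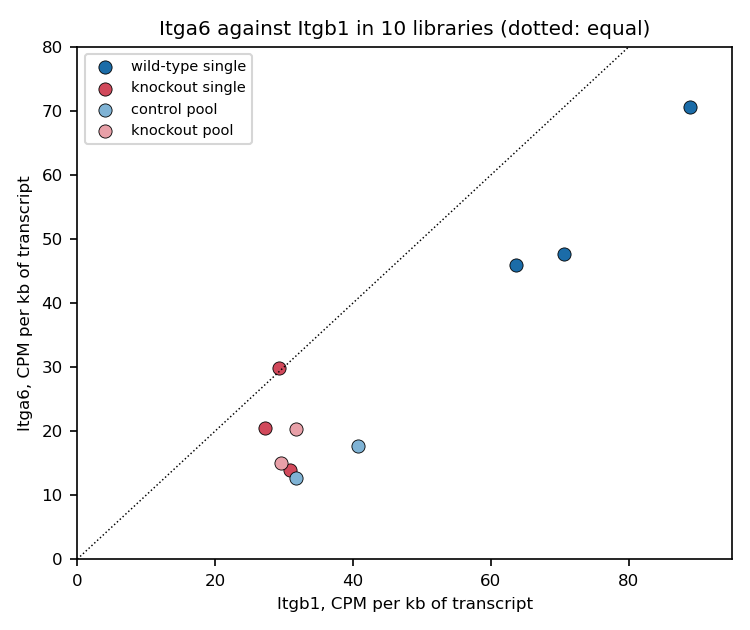
Itga6 (vertical axis) against Itgb1 (horizontal axis), both in CPM per kb of the longest coding transcript, in the 10 libraries coloured by group; the dotted line marks equal values. The 3 wild-type single embryos lie apart at 63.6 to 88.9 CPM per kb of Itgb1, and the other 7 libraries lie between 27.2 and 40.8.

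The balance of Itga6 and Itgb1, the 2 chains of a laminin receptor, varied between libraries. Per kb, Itga6 was 0.795, 0.722 and 0.673 of Itgb1 in wild-type single embryos. In knockout embryos 1, 3 and 4 it was 0.756, 1.02 and 0.45, a range that spans the wild-type values. Pools had 0.4 and 0.431 in controls and 0.507 and 0.639 in knockouts. Itgb5 exceeded its partner Itgav per kb by 7.48-fold to 20.5-fold in all 10 libraries. These ratios of transcript say nothing of protein, and they scale with the transcript lengths assumed.

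Of the remaining family, only Itgb7 and Itga1 passed 6 CPM in any library. Per kb of the longest coding transcript, Itgb7 had 4.86 CPM per kb in wild-type single embryos, above Itgav at 4.11. Of 17 further integrin genes in the table, 6 passed the filter in single embryos and 8 in pools. By edgeR 0 of these were called in either set. Over all genes 3.21% were lower and 1.16% higher in single embryos, and 0.0% either way in pools. At an unadjusted p below 0.05 there was 1 in single embryos, where 12.2% of all genes were lower and 10.4% higher. In pools there were 3, where all genes gave 6.6%. The family genes tested had median log2 changes of -0.86 and 0.54. Itgb7, the only beta partner of Itgae, had 9.64, 15.9 and 13.6 CPM in wild-type and 6.99, 6.31 and 3.38 CPM in knockout single embryos. In pools it had 4.73 and 4.91 CPM in controls and 8.24 and 7.97 CPM in knockouts. Neither pair of groups overlapped, in opposite directions: -1.18 (SE 0.46, edgeR adjusted p = 0.158) and 0.66 (SE 0.26, adjusted p = 0.697). The difference between these effects was -1.83 (SE 0.60, adjusted p = 0.24). Itga1, a collagen receptor chain, had log2 changes of -1.08 and -0.70 (SE 0.55 and 0.31), and Itga11, another, of -1.72 and 0.36 (SE 1.04 and 0.62). Itga2b, the platelet chain, gave -0.20 and 0.50, and Itga10 gave -0.63 and 0.58. The leukocyte chains Itgal and Itgb2 had at most 1.39 and 1.61 CPM in any library, and Itga8 at most 0.88 CPM. Itga2, Itga4, Itga9, Itgad, Itgam, Itgax, Itgb2l, Itgb6 and Itgb8 all stayed below 1 CPM.

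Genes for the ligands of these receptors also included several that fell in knockout single embryos. Of 21 ligand genes tested, 5 were lower and 0 higher, with a median log2 change of -1.19. Set beside this are 3.21% lower over all genes, 9.7% over genes with a hydrophobic stretch and 1.4% over genes without one. The ligand genes were not sorted by that stretch. The laminin-binding linker Nid1 had 122.6, 51.3 and 50 CPM in wild-type and 14.9, 20.6 and 25.6 CPM in knockout embryos, a fall by 1.83 on the log2 scale (SE 0.38, adjusted p = 0.0287 by edgeR). The basement membrane collagens Col4a1 and Col4a2 fell by 1.63 and 2.03 on the log2 scale (SE 0.35 and 0.45). They start beside each other on opposite strands, and whether any reads of one were counted for the other was not checked. Mfge8, a secreted RGD protein that binds Itgav receptors, fell from 338.6 ± 94.7 to 50.3 ± 33.0 CPM (SD, n = 3), or by 2.67 (SE 0.45, edgeR adjusted p = 0.018). In pools Mfge8 lay the other way, at 47.3 and 33.7 CPM in controls and 64.4 and 70.4 CPM in knockouts (0.64, SE 0.21, edgeR adjusted p = 0.62), and the difference between its effects was -3.30 (SE 0.63, adjusted p = 0.235). Cdh1, E-cadherin, the ligand of Itgae with Itgb7 and the adhesion molecule of compaction, fell by 1.91 (SE 0.32, edgeR adjusted p = 0.018). The laminin chains Lamb1 (-1.79, SE 0.47) and Lamc1 (-1.39, SE 0.42) did not pass, at edgeR adjusted p of 0.058 and 0.0842. Fn1, fibronectin, had -1.12 (SE 0.50, adjusted p = 0.216). Spp1, osteopontin, an RGD ligand of Itgav receptors, had -2.10 (SE 0.78, adjusted p = 0.142) in single embryos and -1.72 (SE 0.27, adjusted p = 0.245) in pools, and passed in neither. In pools 0 of 23 ligand genes passed edgeR and the median was 0.20. At an unadjusted p below 0.05 there were 3 (Spp1, Mfge8 and Npnt), where all genes gave 6.6%.

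In a list drawn up of lateral membrane partners of integrins, 9 of 12 genes tested were lower and 0 higher in knockout single embryos. All genes gave 3.21% lower and 1.16% higher. Genes with a hydrophobic stretch gave 9.7% lower, and those of them with a mean of at least 10 CPM gave 16%. Cd151, the tetraspanin that holds laminin receptors, went from 216.2 ± 40.6 to 93.3 ± 9.22 CPM (SD, n = 3), or by -1.16 on the log2 scale (SE 0.21, adjusted p = 0.0206 by edgeR). The tetraspanins Cd9, Cd63 and Tspan8 fell by 1.09, 0.95 and 1.70. Slc3a2, the heavy chain of amino acid transporters that binds beta tails, fell by 1.05. Bsg (basigin), Plaur (the urokinase receptor), the syndecan Sdc4 and Itfg1 fell by 0.96, 1.26, 1.0 and 1.22. The list's median was -1.12 in single embryos. In pools it was -0.29, with 0 of 14 passing edgeR, against 0.0% of all genes. At an unadjusted p below 0.05 there were 4, where all genes gave 6.6%.

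On the cytoplasmic side of the adhesion complex, 2 of 31 tail adaptors and plaque genes tested (6.45%) were lower and 0 higher in single embryos. All genes gave 3.21% lower, and the list's median log2 change was -0.29. Those were Vcl, vinculin, which ties talin to actin (-1.35, SE 0.26, edgeR adjusted p = 0.0226), and Actn4, an actinin (-0.75, SE 0.17, adjusted p = 0.0359). The integrin activator Tln1 had 54.9 ± 7.07 CPM in wild-type and 48.3 ± 8.93 CPM in knockout embryos (SD, n = 3), or -0.15 on the log2 scale (SE 0.24). Its relative Tln2 had -1.13 (SE 0.32, edgeR adjusted p = 0.0685). Ilk, the integrin-linked pseudokinase, and Itgb1bp1, which binds the Itgb1 tail, had 0.46 (SE 0.29) and 0.79 (SE 0.38, adjusted p = 0.245). In pools 0 of 31 passed edgeR, against 0.0% of all genes, and the median was -0.04. There, 2 had an unadjusted p below 0.05, where all genes gave 6.6%. Whether any of these lists differed from other genes of their class was not tested.

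**Figure D4:**
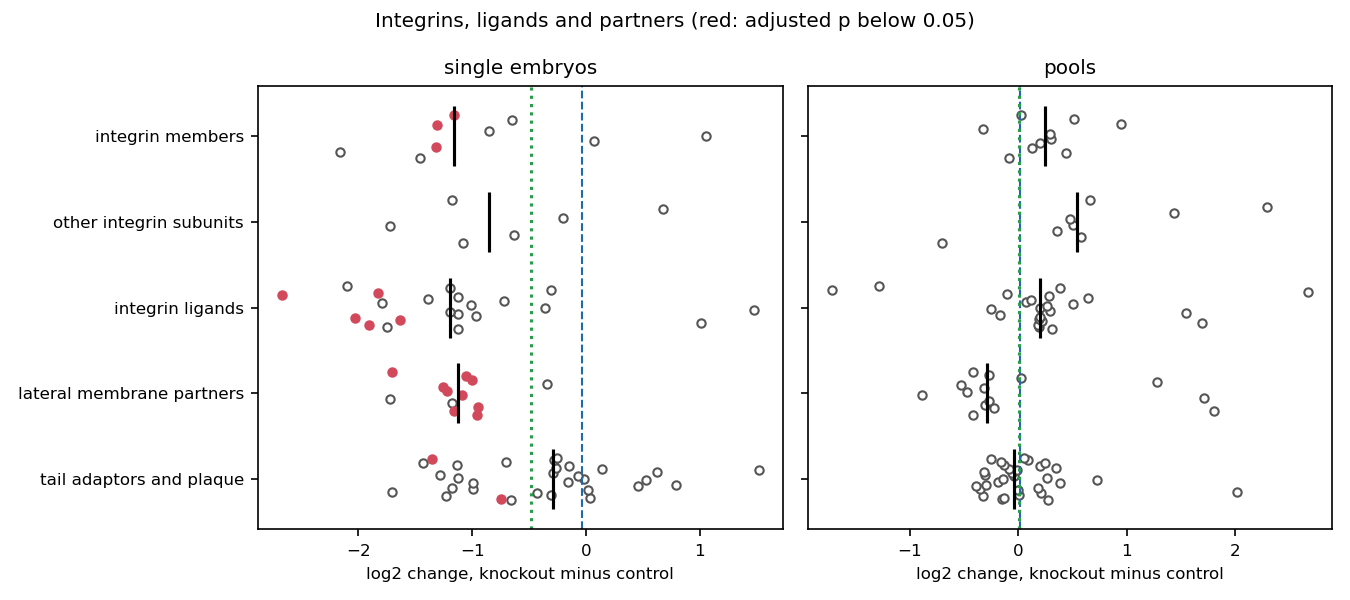
Log2 change from control to knockout (horizontal axis) of each tested gene of 5 lists in single embryos and pools; red points passed an adjusted p of 0.05, black bars are list medians, the blue dashed line is the median of all genes and the green dotted line that of genes with a hydrophobic stretch. In single embryos the medians of members, ligands and lateral partners are -1.16, -1.19 and -1.12, and that of tail adaptors is -0.29.

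The genes whose pattern over the 10 libraries was most like that of Itgb1 were Kdelr2, Magt1, Lbr, Nipa2 and Slc43a3. Pearson's r of log2(CPM + 1) with Itgb1 was 0.974 to 0.984, among 8009 genes with a mean of at least 10 CPM. All 5 encode a hydrophobic stretch, as do 23.9% of the genes compared. Of the members at that level, Itga6 had r = 0.868 (rank 493 of those genes), Itgb5 0.825 (781), Itga3 0.778 (1081), Itgav 0.765 (1164) and Itgae -0.719 (6865). Only 10 libraries enter each r, and they share sets and genotypes, so these values are a description.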

How the data were processed

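The deposited table holds whole-number read counts per gene, without normalization; per the submitters' processing notes the authors used mm10, the aligner STAR 2.7.6a, RSEM 1.3.1 and the trimmer fastp 0.21.0. The annotation, the strand setting and the treatment of reads that match more than 1 place are not given in the sources. Per the labels' protocols, polyadenylated RNA was amplified with SMART-Seq v4, made into Nextera XT libraries and read single-end over 75 bases. Counts carry no molecular identifiers, so the limit that a count of 0 allows (3 counts) covers counting error only.

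The test was that of edgeR 4.0.16 under R 4.3.3 (filterByExpr by group, TMM, quasi-likelihood F test, two-sided, Benjamini-Hochberg over all genes tested, 5%). Each set was fitted alone, and the difference between sets over all 10 libraries. Each standard error is the change divided by the root of its F value, and fitted changes carry a prior count of 0.125. CPM uses library totals. Alternatives were DESeq2 1.42.0, limma-voom (limma 3.58.1), other scalings and filters, robust fitting, one fit over all libraries, the replicate block and leaving out each library. The fits were also run on simulated counts with known changes, and the outcome of that run is not given here.

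Lengths and protein-coding sequences come from GENCODE M21 on GRCm38. A hydrophobic stretch is any 19-residue window with a mean Kyte-Doolittle value of at least 1.6 after the first 40 residues. Named are all members, other integrin genes passing a filter, Jarid2, list members past 5% in either set, and the 5 genes most like Itgb1; Lamb1, Lamc1, Fn1, Tln1, Tln2, Ilk, Itgb1bp1 and Gsg2 were added after their values were seen, as were Spp1, Npnt and the integrin genes below 1 CPM. Members, lists and the hydrophobic class were chosen with earlier results of these data known. Libraries of a group differed beyond sampling noise (chi-square per gene 45.6 to 80.1).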

Additional observations from a re-analysis of the deposited data

How the results depend on the processing

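Of 140 single-embryo values under other settings, 114 kept direction and side of the threshold, 18 lost a call, 4 gained one and 4 turned sign. In pools 128 of 135 kept both and 7 turned sign, and for the difference between sets 176 of 186 did, 3 gained a call and 7 turned sign. Itgb1, Itga6 and Itgb5 were below 0 in all 48 alternative single-embryo fits (-1.56 to -0.81), 30 of them past 5%. The count of members lower in knockout single embryos, 3, was 5 by DESeq2, 5 with no filter on low counts, 0 with the replicate block, and 0 to 3 when 1 library was left out. Over all genes, lower and higher calls were then 39 and 2 without wild-type embryo 1, 390 and 129 without 2 and 1 and 0 without 3. They were 62 and 4 without knockout embryo 1, 714 and 602 without 3 and 1 and 0 without 4. Itgb5 missed the threshold with upper quartile scaling (-1.10, adjusted p = 0.0518) and with library totals only (-1.20, adjusted p = 0.0508). The count of members whose effect differed between sets, 0, was 2 by DESeq2 and 1 with no filter, and 0 in every fit without 1 library. With library totals only, the median of all genes moved from 0.01 to 0.10 in pools and from -0.05 to -0.21 for the difference. Calls over all genes in single embryos were 1007 lower and 938 higher by DESeq2, 987 and 728 with no filter, 781 and 506 at 10 CPM or more, 876 and 791 in one fit over all libraries and 22 and 16 with the replicate block. In pools, where edgeR called 0, they were 7 and 63 by DESeq2, 1 and 0 by limma-voom, 30 and 140 with no filter and 10 and 29 with the replicate block, and 7 to 125 lower and 18 to 254 higher without 1 pool. For the difference, where it called 1, they were 227 and 209 by DESeq2 and 200 and 348 with no filter. The cause was not tested in any of these cases.

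Replicate numbers are shared by 2 pairs in each set, and the labels do not say that they pair libraries. Deviations of same-numbered single embryos correlated at -0.01 and -0.08, and those of the pools at 0.32. With the number as a block, Itgb1 had -1.47 (adjusted p = 0.108), Itga6 -1.21 (0.204) and Itgb5 -0.81 (0.449), Itgb4 turned to 1.10 in single embryos and 0.65 for the difference, and Itga7 to 1.08 for the difference.

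By limma-voom Itga7 turned to 0.19 for the difference and to -0.013 in pools. Without 1 library, ranges that crossed 0 were -0.63 to 0.69, -0.74 to 0.76 and -0.84 to 0.82 for Itga7 in single embryos, in pools and for the difference. For Itgb4 they were -1.40 to 0.32 in single embryos and -0.041 to 0.905 in pools, and in pools -0.068 to 0.34 for Itga6 and -0.21 to 0.22 for Itgb5. Where a group was left with 1 library, it was assumed to vary like the others. Itga7, Itgb3 and Itgb4 had 0 to 143 counts a library.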

Other observations

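Knockout single embryos 4, 1 and 3 had 61.3, 156.1 and 318.7 CPM of Jarid2, and 60.0, 88.5 and 128.7 CPM of Itga6. Itgb5 stood in the same order at 49.2, 71.9 and 112.2 CPM, as did Itgav, Itga3, Itga5, Itga7 and Itgb4. Itgb1 did not, at 118.0, 103.6 and 111.9 CPM. Nor did Itgae, at 3.49, 17.8 and 13.1 CPM, or Itgb3, at 0.33, 0.5 and 0.11 CPM. The share of all genes in this order was not counted. In wild-type embryos the order was another one, since embryo 1 had the lowest Jarid2 (580.3 CPM) and the highest Itga6 (304.6 CPM). In knockout pools 1 and 2, Jarid2 had 180.6 and 157.9 CPM and Itga6 64.5 and 87.4 CPM. With 3 embryos or fewer to a group no correlation was computed, and this pattern was noticed after the values were seen.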
